A study of Mus musculus with 10 samples.

Results

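The regions described here are 703 promoters of mouse neural stem and progenitor cells (NSPCs) that had an ATAC-seq peak in cycling cells, no peak in quiescent cells, and a peak once more after the cells had returned to the cell cycle. Peaks of all 6 ATAC-seq libraries on chromosomes 1 to 19 were merged where they overlapped or abutted, which gave 105302 sites, of which 26856 overlapped the 1 kb on either side of an annotated transcription start site (TSS). A member promoter had a peak in both activated and both reactivated libraries and in neither quiescent library. This pattern was found at 2.62% of promoter sites and at 3.93% of all merged sites. The count rests on all 6 libraries, and it would have been 1447 without activated replicate 2 and 1290 without quiescent replicate 2. The members were chosen by the ATAC-seq peak calls of the 6 libraries, so the ATAC-seq values below describe them and are not tested.

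NSPCs were cultured from C57BL/6 mice at postnatal day 5. Activated cells grew with FGF2 and EGF at 20 ng/ml each. Quiescent cells were plated for 24 h, and EGF was then replaced by BMP4 at 25 ng/ml for 4 days, with FGF2 kept at 20 ng/ml. The 4 days are those of the labels, and the study's methods give a shorter time for the ATAC-seq samples. Reactivated cells were quiescent cells put back into growth medium for 9 to 12 days. ATAC-seq was made from 2 libraries per state, and chromatin immunoprecipitation of trimethylated lysine 4 of histone H3 (H3K4me3) from 1 library per state, for the quiescent and activated states only. The study's methods call the ATAC-seq replicates of activated and quiescent cells biologically independent. Nothing in the labels says whether the 2 libraries of a state came from separate animals. The cultures mix stem cells and their progenitors. In such bulk samples, a change in every cell and a change in the share of cells with an open promoter cannot be told apart.

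ATAC-seq uses a transposase that cuts DNA where nucleosomes are sparse, so a peak marks accessible chromatin. H3K4me3 is deposited around active and poised promoters, most strongly at those rich in CpG dinucleotides. BMP4 with FGF2 holds cultured neural stem cells in a reversible cell cycle arrest through SMAD proteins and their target genes of the Id family, and EGF with FGF2 brings them back into the cycle through receptor tyrosine kinases.

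Sequences at the ATAC-seq summits of 7 members are given first, because the motif matches described below were read from windows of this kind. Each window is 200 bp of the GRCm38 (mm10) plus strand, 5′ to 3′, and overlaps no annotated exon. It is centred on the summit of the activated peak with the highest −log10 p. The set holds the strongest such member with AP-1, NFI core, E-box and CRE motifs and the strongest in each class of H3K4me3 marking. Capitals mark letters of the motifs searched, on either strand. Mir206 served for the E-box and for members without H3K4me3, Gm12094 for AP-1, Gm37830 for the NFI core, and Klf13, Vpreb3 and Vit for H3K4me3 in both states, in quiescent cells only and in activated cells only. Gm10369 is 1 of only 2 members with the CRE motif.
Mir206 (chr1:20678049-20678248): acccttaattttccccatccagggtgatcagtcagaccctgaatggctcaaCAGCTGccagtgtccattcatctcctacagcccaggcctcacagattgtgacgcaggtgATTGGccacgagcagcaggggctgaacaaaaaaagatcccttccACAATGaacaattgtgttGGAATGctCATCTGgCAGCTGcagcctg
Gm12094 (chr11:29839909-29840108): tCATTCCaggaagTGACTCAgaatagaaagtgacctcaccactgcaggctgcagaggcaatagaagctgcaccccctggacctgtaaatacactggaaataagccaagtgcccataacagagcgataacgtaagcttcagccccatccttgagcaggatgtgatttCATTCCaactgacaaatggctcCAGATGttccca
Gm37830 (chr13:100871535-100871734): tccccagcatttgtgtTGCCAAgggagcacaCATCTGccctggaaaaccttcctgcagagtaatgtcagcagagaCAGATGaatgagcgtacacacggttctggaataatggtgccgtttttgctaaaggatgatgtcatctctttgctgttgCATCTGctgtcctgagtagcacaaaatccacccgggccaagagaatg
Klf13 (chr7:63925043-63925242): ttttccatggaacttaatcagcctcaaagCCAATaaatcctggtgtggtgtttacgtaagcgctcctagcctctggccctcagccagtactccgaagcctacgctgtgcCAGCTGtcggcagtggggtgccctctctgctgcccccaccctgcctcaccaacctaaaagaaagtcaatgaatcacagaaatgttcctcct
Vpreb3 (chr10:75944283-75944482): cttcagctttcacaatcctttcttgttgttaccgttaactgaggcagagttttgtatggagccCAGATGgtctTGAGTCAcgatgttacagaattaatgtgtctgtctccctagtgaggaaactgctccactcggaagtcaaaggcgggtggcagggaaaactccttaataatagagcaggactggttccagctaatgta
Vit (chr17:78507234-78507433): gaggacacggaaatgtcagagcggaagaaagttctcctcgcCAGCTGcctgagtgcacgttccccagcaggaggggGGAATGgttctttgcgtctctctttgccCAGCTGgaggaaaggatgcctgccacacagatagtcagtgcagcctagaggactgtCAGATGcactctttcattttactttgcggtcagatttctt
Gm10369 (chr5:134676203-134676402): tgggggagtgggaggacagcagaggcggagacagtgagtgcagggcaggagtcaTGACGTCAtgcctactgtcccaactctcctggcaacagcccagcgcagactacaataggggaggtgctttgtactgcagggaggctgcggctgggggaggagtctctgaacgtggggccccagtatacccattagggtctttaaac

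The Mir206 window, 861 bp upstream of the annotated start of this microRNA gene, holds the E-box CAGCTG at base 52 and base 188, counted from the left. Its fold enrichment over background was 9.76 and 9.41 in the activated libraries and 11.4 in both reactivated libraries. The Gm12094 window, 366 bp upstream of the start, carries AP-1 at base 14, and its fold enrichment was 12.1 and 7.99 in activated and 9.34 and 8.78 in reactivated cells. The Vpreb3 window carries AP-1 at base 74, as the reverse complement. Klf13 encodes a zinc finger factor of the SP and KLF family, and its window, 273 bp upstream of an alternative start, holds the E-box CAGCTG at base 110 and a CCAAT box at base 30.

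Member promoters were open at moderate strength. Their median fold enrichment was 4.04 and 3.71 in activated replicates 1 and 2, and 5.83 and 5.71 in reactivated replicates 1 and 2. Promoters with a peak in all 6 libraries, here called constitutively open (12303 sites), had medians of 8.63, 7.27, 11.2 and 11.9 in the same libraries and of 7.06 and 6.88 in the quiescent ones. Within its own list, the median member sat at percentiles 39.9 and 33.7 of fold enrichment in activated cells and at percentiles 61.2 and 59.8 in reactivated cells. The reactivated lists hold 103186 and 103783 peaks against 46071 to 59108 in the others. Since a percentile depends on the other peaks of its list, percentiles are not read here as a change in accessibility between states. The members were 189 to 1638 bp wide, with a median of 443 bp. Across the 703 members, log2 fold enrichment correlated between the activated libraries with r = 0.62 and between the reactivated libraries with r = 0.82. Between an activated and a reactivated library, r lay between 0.43 and 0.52. These values are descriptions across sites that share a library and its depth.

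**Figure D1:**
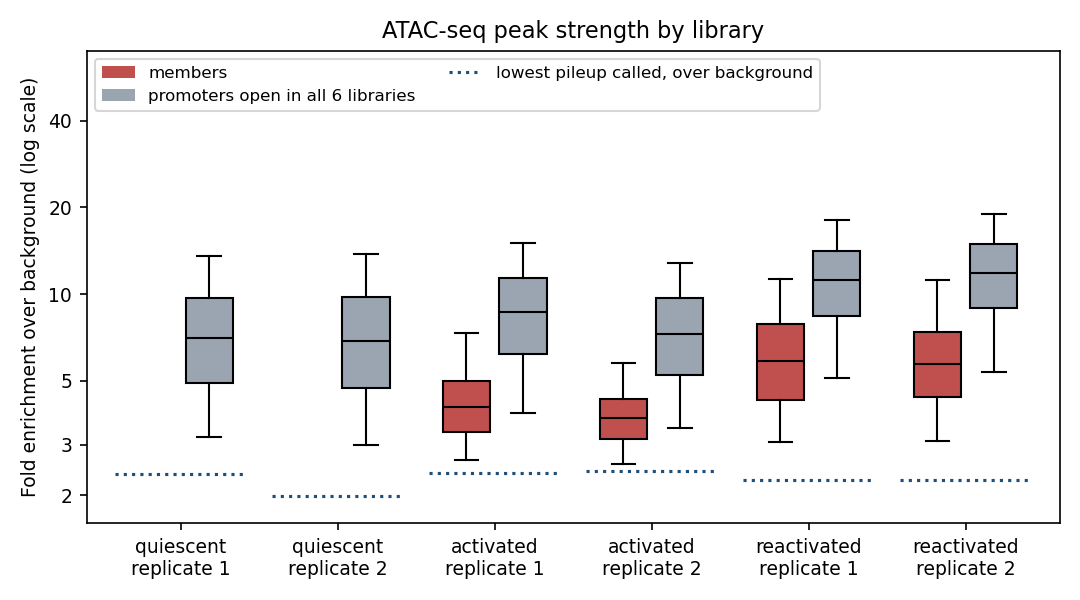
Fold enrichment of ATAC-seq peaks (log axis) in each library, for the 703 members and the 12303 constitutively open promoters; boxes span the quartiles with the median as a line, whiskers reach the 5th and 95th percentiles, and dotted lines mark the lowest pileup called over the background. Members have no box in the quiescent libraries, where they have no peak, and their medians of 3.71 to 5.83 lie below the medians of 7.27 to 11.9 of constitutively open promoters in the same libraries.

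No quiescent peak means only that the pileup was not called against its local background. The lowest pileup called was 17 reads over a background of 6.61 in quiescent replicate 1 and 25 reads over 12.1 in quiescent replicate 2, which puts the floor at this library-wide background at fold enrichments of 2.37 and 1.99. Where the local background was higher, peaks were called at lower fold enrichments, down to 1.33 and 1.26. By the lower of their activated values, 690 members (98.2%) lay above the floor of quiescent replicate 1, 339 (48.2%) lay at least 1.5 times above it, and 91 (12.9%) at least 2 times. For quiescent replicate 2 these counts were 703, 533 and 209. Members had a called peak in each activated library, where the floors were 2.39 and 2.42, above those of the quiescent libraries. The counts above the quiescent floors were thus nearly fixed by the choice of members and are not a result. Each value is relative to the background of its own library, with no common scale. The counts at 1.5 and 2 times therefore do not show which members a quiescent library could have detected.

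The nearest sites on either side of the thresholds show how sharp the rule is. The members with the weakest call were at Ctnna3 (−log10 q of 1.32), Grin2c (1.34) and St6gal1 (1.46). Gm960, Egflam and Mtss1 were left out by a quiescent peak with a −log10 q of 1.30. The members farthest from a TSS were at Pqlc1 and Map1b (996 bp each) and Bcas1os2 (991 bp), and sites near Mark2 (1001 bp), Tubb2a (1004 bp) and Gm14267 (1005 bp) were just outside the window. Of promoter sites with a peak in all 4 activated and reactivated libraries, 703 had no quiescent peak, 867 had 1 (290 in quiescent replicate 1 and 577 in quiescent replicate 2), and 12303 had both.

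Of 754 promoter sites with both activated peaks and no quiescent peak, 703 (93.2%, exact 95% interval 91.2 to 94.9) had a peak in both reactivated libraries. Another 39 had a peak in 1 of them and 12 in neither. Among 683 promoter sites with both quiescent peaks and no activated peak, 448 (65.6%, 61.9 to 69.2) were open in both reactivated libraries, and among 12332 open in both of those states it was 12303 (99.8%). Of all promoter sites with a peak in any quiescent or activated library, 17433 of 19475 (89.5%, 89.1 to 89.9) were open in both reactivated libraries, as were 3431 of 3746 distal sites (91.6%, 90.7 to 92.5) with both activated peaks and no quiescent peak. The intervals of the activation promoters and of these distal sites overlap. With all lists cut to the 46071 strongest peaks, 57.5% of activation promoters were open again. The shares of the other classes were not recomputed with these lists, so the order of the classes is not known there. The intervals cover counting error only, and sites are not replicates of a state.

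The 10 strongest members, by mean percentile over the 4 libraries, were Dock10, Gm47523, Mir206, Mbd5, Gm37830, Map2k6, Manba, Gm12094, Lypd6 and Gm12524. Of these, 9 had no H3K4me3 region, 5 lay only at an alternative TSS of their gene, 5 were at genes that do not code for protein, and 0 shared a TSS with a constitutively open site. Dock10, a guanine nucleotide exchange factor for small GTPases, had fold enrichments of 12.8 and 7.99 in activated and 16.5 and 15.8 in reactivated cells, at chr1:80709226-80709748 over an exon, 18 bp downstream of an alternative start. It was the only one of the 10 with H3K4me3, at a fold enrichment of 14.3 in quiescent and 13.2 in activated cells. Map2k6, a kinase that activates p38, had 7.96 and 6.88 in activated and 13.4 and 14.4 in reactivated cells (chr11:110478926-110479428). For Dock10 and Map2k6 both reactivated values exceeded both activated ones, the order of 76.4% of promoter sites in general. Manba, the lysosomal beta-mannosidase, had 10.2 and 8.27 in activated and 9.44 and 10.3 in reactivated cells (chr3:135516820-135517288), with the states overlapping. Lypd6, a membrane-anchored protein of the Ly6 family, had 7.29 and 5.85 in activated and 16.2 and 17.2 in reactivated cells (chr2:50127398-50128096). Mbd5, of the methyl-CpG-binding domain family, had 8.22 and 6.27 in activated and 14.9 and 16.4 in reactivated cells.

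Both reactivated fold enrichments lay above both activated ones at 499 of 703 members (71.0%), against 76.4% of the 13873 promoter sites with a peak in all 4 of these libraries. Ranked within each list, both reactivated percentiles were above both activated ones at 448 members (63.7%), against a background of 56.9%, and both activated above both reactivated at 40 (5.69%), against 10.5%. The part of the lists' different lengths in these shares was not tested.

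The members at the extremes of the percentile difference are given as a description. Gm44749 sat at percentiles 81.5 and 68.8 in activated and 26.9 and 18.5 in reactivated cells, and Gzmk, which encodes granzyme K, a protease of cytotoxic lymphocytes, at 71.6 and 65.3 against 24.6 and 19.7. Gm35940 sat at percentiles 64.5 and 37.3 in activated and 13.6 and 4.16 in reactivated cells. At the other end were Il20rb, a subunit of receptors for cytokines of the IL-10 family, with percentiles of 9.43 and 4.63 in activated and 85.1 and 71.4 in reactivated cells, and 2310044K18Rik with 2.26 and 7.44 against 78.6 and 71.9. Nrg1, the ErbB ligand neuregulin 1, had 6.57 and 7.44 against 68.8 and 70.6. These 6 were picked as the extremes of this difference, and in each the states do not overlap.

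H3K4me3 split the members into 2 groups of nearly equal size. A region overlapped 327 members (46.5%, exact 95% interval 42.8 to 50.3) in both quiescent and activated cells and 339 (48.2%, 44.5 to 52.0) in neither, while 19 members were marked in quiescent cells only and 18 in activated cells only. Over all promoter sites, 65.7% were marked in both states. Constitutively open promoters were marked in both states at 89.8% (89.3 to 90.4), promoters open only in reactivated cells (3247 sites) at 51.5% (49.7 to 53.2), and the 3431 distal sites with the members' pattern at 5.68% (4.93 to 6.51). The members' interval lies below those of the constitutively open promoters and above that of the distal sites, and meets that of promoters open only in reactivated cells. With 1 library per state there is no replicate error for H3K4me3, and none of these differences was tested.

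**Figure D2:**
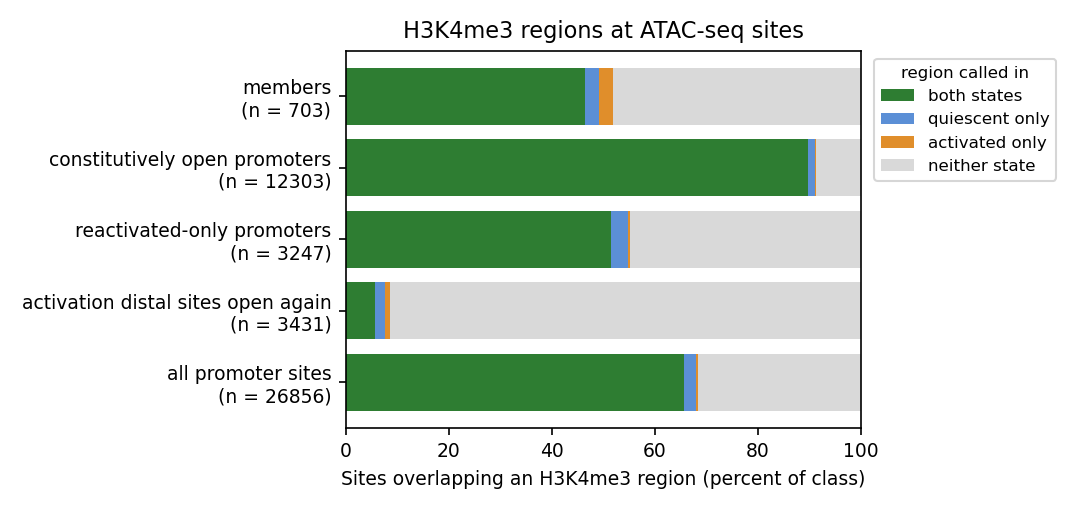
Share of sites of each class (percent) that overlap an H3K4me3 region in both states, in quiescent cells only, in activated cells only or in neither. Of the members, 46.5% were marked in both states and 48.2% in neither, against 89.8% and 8.69% of constitutively open promoters.

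Members marked in both states had an H3K4me3 region in quiescent cells, where they had no ATAC-seq peak. At 106 of these 327 members (32.4%) a constitutively open site lay at the same TSS, and the broad region can reach over both. When 50% of the member had to be covered, 41.8% of the 703 were marked in both states. The median H3K4me3 fold enrichment of the 327 members was 24.3 in quiescent and 23.5 in activated cells, and the median log2 ratio of activated to quiescent was −0.09 (95% interval over sites −0.13 to −0.06), against −0.11 at constitutively open promoters and −0.12 at all promoter sites with a region in both states. The ratio was at least 1.5 fold higher in activated cells at 8 members (2.45%), against a background of 0.981%, and at least 1.5 fold lower at 17 (5.20%), against 6.09%. At the 221 marked members with no constitutively open site at the same TSS, the median log2 ratio was −0.09.

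Gper1, a G protein-coupled receptor for oestrogen, had the largest ratio, with H3K4me3 at 3.28 in quiescent and 8.82 in activated cells, a log2 ratio of 1.43. Its promoter (chr5:139423054-139423332, summit 3 bp from the TSS) had ATAC-seq fold enrichments of 3.94 and 4.02 in activated and 6.30 and 5.99 in reactivated cells. Gpd1, the cytosolic glycerol-3-phosphate dehydrogenase, went from 8.43 to 16.5, Sod3, the extracellular superoxide dismutase, from 3.62 to 6.39, Kcnc1, a voltage-gated potassium channel, from 27.9 to 48.5, and Pidd1, a death domain protein induced by p53, from 18.1 to 28.7. The lowest ratios were those of AI593442, whose pair of member sites lies in a single H3K4me3 region that went from 10.2 to 5.35, and of Id4, an inhibitor of basic helix-loop-helix factors and a target of BMP signalling, from 44.0 to 23.8. Trdn, which encodes triadin of the muscle calcium release complex, went from 5.40 to 3.18, and Sgk1, a serine/threonine kinase, from 37.9 to 22.6. Each of these comparisons sets 1 library against 1 other and has no replicate check.

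Most regions found in 1 state only were weak, but not all. The 19 members marked in quiescent cells only had a median H3K4me3 fold enrichment of 4.20, up to 24.7 at Sptan1, and the 18 marked in activated cells only had 5.60, up to 29.3 at Gpsm1 and 27.5 at Frem2. These 3 genes are named for those values. By ATAC-seq strength, the first members marked in quiescent cells only were Gm28323 (H3K4me3 fold enrichment 3.28), Vpreb3 (2.78), Nrsn1 (4.11), Adtrp (5.27) and AC122818.4 (4.41). Those marked in activated cells only were Gpr15 (7.59), Vit (3.25), Mir7211 (3.55), Gm16531 (3.32) and Vwa5b1 (6.05). Gpr15, a G protein-coupled homing receptor of T cells, had ATAC-seq values of 5.17 and 6.85 in activated and 16.8 and 13.2 in reactivated cells, and Vit, which encodes the matrix protein vitrin, had 5.31 and 5.42 against 10.1 and 9.20. In both, the reactivated values lay above the activated ones, the order of 76.4% of promoter sites in general.

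Members lay at alternative starts more often than constitutively open promoters did. Of the 703, 244 (34.7%, 31.2 to 38.4) overlapped only the windows of alternative TSSs, which are starts other than the farthest upstream one of a gene, against 13.2% (12.7 to 13.9) of constitutively open promoters and 26.5% (25.0 to 28.1) of promoters open only in reactivated cells. The assigned gene coded for protein at 540 members (76.8%), against 92.4% and 81.9%, and the other 163 included 49 lincRNA and 33 antisense genes. The ATAC-seq summit fell within 100 bp of the TSS at 211 members (30.0%, 26.6 to 33.6), against 52.8% (51.9 to 53.7) of constitutively open promoters and 29.3% (27.7 to 30.9) of promoters open only in reactivated cells. By the annotation, 235 summits fell in an exon, 309 in an intron and 159 between genes. Member summits are those of the strongest activated peak, and summits of other classes are those of the strongest peak of any library. The shares of this paragraph are not given over all promoter sites. They were not tested, since neighbouring sites and the starts of 1 gene are not independent.

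**Figure D3:**
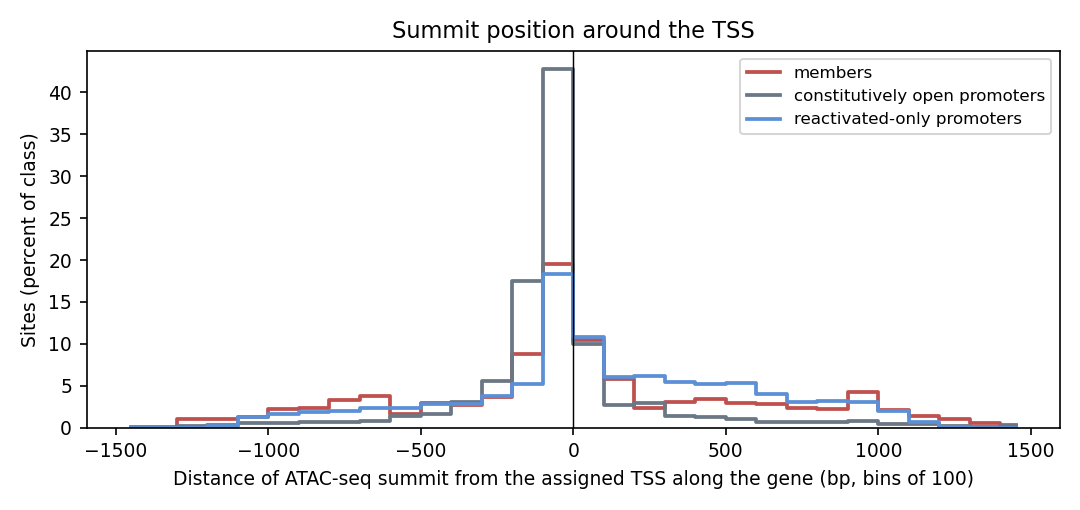
Distance of the ATAC-seq summit from the assigned TSS (bp, negative upstream, bins of 100 bp) as percent of each class. The summit is that of the strongest activated peak for members and of the strongest peak of any library for other classes. Summits of constitutively open promoters pile up just upstream of the TSS, with 52.8% within 100 bp, whereas 30.0% of member summits lie that close and the rest spread across the window.

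Some members stood beside a promoter with a peak in every library. A constitutively open site lay at the same TSS at 124 members (17.6%, 14.9 to 20.7), against 30.3% (28.7 to 31.9) of promoters open only in reactivated cells. A site with any quiescent peak lay there at 198 members (28.2%), against 39.8%. The members' share of 17.6% was 8.37% with peaks of a −log10 q of at least 10 only and 10.1% with a 500 bp window. The gene had another promoter site open in both quiescent libraries at 325 members (46.2%), or at 301 of the 540 protein-coding ones (55.7%). For these genes, a lost peak at the member was therefore not a loss of every accessible promoter. The 124 members beside a constitutively open site had median fold enrichments of 3.56 and 3.43 in activated and 4.26 and 4.33 in reactivated cells, and 85.5% (78.0 to 91.2) were marked by H3K4me3 in both states. The other 579 members had medians of 4.11, 3.71, 6.30 and 6.12, and 38.2% (34.2 to 42.3) were marked.

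The sequence of the members lay between that of constitutively open promoters and that of distal sites. Windows of members were centred on the strongest activated peak, and those of other classes on the strongest peak of any library. The effect of this difference was not tested. The observed over expected CpG ratio in 200 bp at the summit had a median of 0.42 in members (95% interval 0.39 to 0.45), 0.82 in constitutively open promoters, 0.51 in promoters open only in reactivated cells, 0.21 in distal sites with the members' pattern, and 0.64 in all promoter sites. Median GC content was 57.5% in members and 66% in constitutively open promoters. The members' intermediate CpG ratio covered marked and unmarked members, which differed. The CpG ratio was not split in this way for other promoter sites, so the split is not read as particular to the members. Members marked by H3K4me3 in both states had a median CpG ratio of 0.70 and a GC content of 64%, and members with no region had 0.26 and 54%. Marked members were at protein-coding genes at 89.6%, lay only at an alternative TSS at 26.9% and had a constitutively open site at the same TSS at 32.4%. For unmarked members these shares were 64.9%, 43.7% and 3.83%. Unmarked members had the higher median fold enrichment in each library, with 4.30, 3.85, 6.40 and 5.87 against 3.77, 3.57, 5.26 and 5.45.

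**Figure D4:**
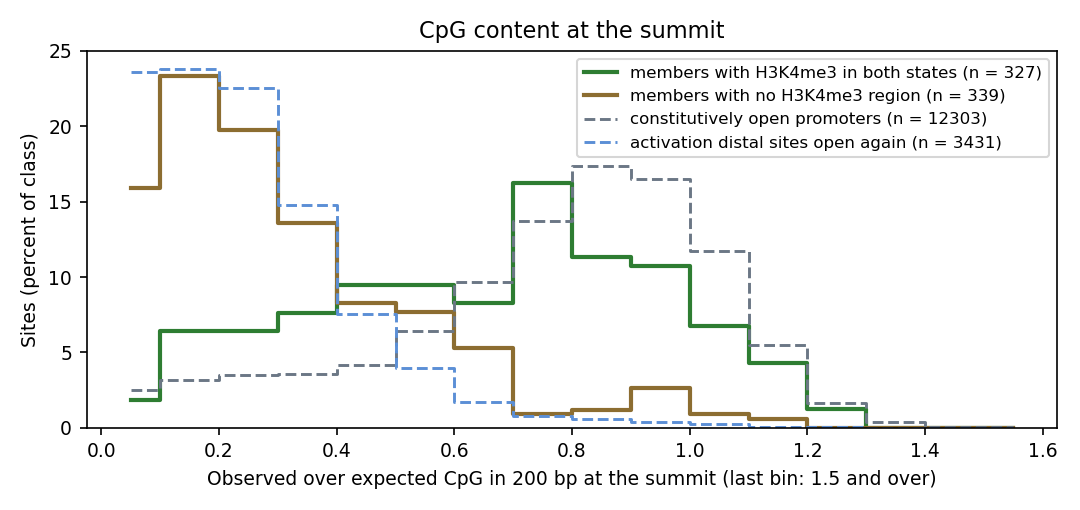
Observed over expected CpG in 200 bp at the summit for members with H3K4me3 in both states (327) and with no region (339), beside constitutively open promoters and distal sites with the members' pattern, as percent of each class in bins of 0.1. By median, among the classes drawn here, marked members (0.70) lie nearest to the constitutively open promoters (0.82). Unmarked members (0.26) lie nearest to the distal sites (0.21). All promoter sites, which are not drawn, have a median of 0.64.

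Exact matches to 16 motifs were counted on both strands of the same 200 bp. As for the CpG ratio, the windows of members and of other classes were placed by different rules. The AP-1 motif TGACTCA, bound by FOS and JUN dimers, was found at 54 members (7.68%, 5.82 to 9.90), against 3.04% of all promoter sites, 2.11% of constitutively open promoters, 3.11% of promoters open only in reactivated cells and 10.3% of distal sites with the members' pattern. The E-box CAGCTG, a hexamer of the kind bound by basic helix-loop-helix factors, was found at 244 members (34.7%, 31.2 to 38.4), against 16.6% of all promoter sites and 46.2% of the distal sites. For CAGATG, another E-box, the shares were 18.5%, 10.7% and 31.3%, for the SOX motif ACAATG 12.2%, 6.44% and 19.1%, for the NFI core TTGGCA 16.8%, 10.8% and 22.6%, and for the TEAD motif GGAATG 11.5%, 8.43% and 14.3%. In each of these 6 motifs the members' interval lay above the share of all promoter sites.

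Several motifs of CpG-rich promoters were less frequent in members than in all promoter sites, and within the H3K4me3 classes described below this held for marked sites. The SP and KLF motif GGGCGG was found at 27.9% of members (24.6 to 31.4), against 42.5% of all promoter sites and 61.3% of constitutively open promoters. A CCAAT box was found at 18.9% (16.1 to 22.0), against 25.7% and 33.4%. The ETS motif CCGGAAGT was found at 6 members (0.853%), against 3.53% and 6.67%, and the CRE motif TGACGTCA at 2 (0.284%), against 1.79% and 3.24%. For the E2F motif GGCGGGAA (1.71%), the octamer ATGCAAAT (1.56%), the homeobox motif TAATTA (2.13%) and the longer NRF1 (0.284%) and CTCF (1.71%) motifs, the members' intervals held the shares of all promoter sites, which were 1.99%, 1.05%, 1.59%, 0.760% and 2.22%. The YY1 motif AAGATGGC was found at 5 members (0.711%) against 2.13%. GGCGGGAA can overlap GGGCGG, and a match is a run of letters, not a bound site. All these shares hold for windows of 200 bp. Over whole sites, most shares of the members were higher, such as 37.1% for the CCAAT box. Whole sites were read for members only, so the comparison with other classes was not repeated there.

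**Figure D5:**
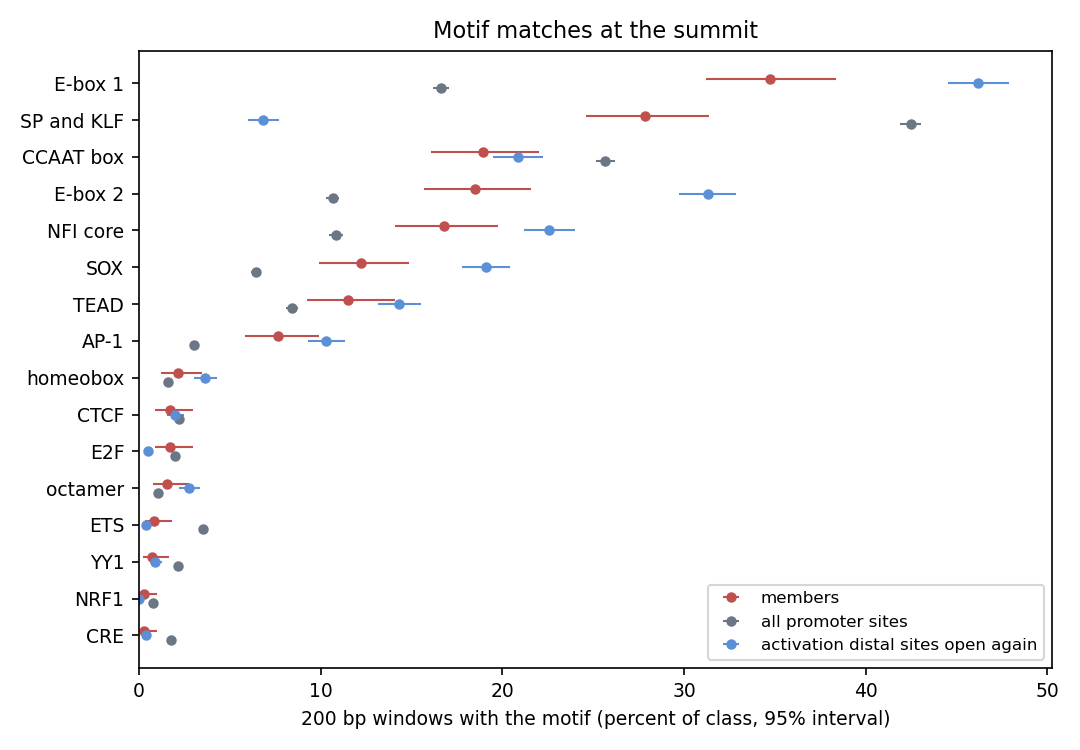
Share of 200 bp summit windows with an exact match to each of 16 motifs (percent, with exact 95% intervals) in members, all promoter sites and distal sites with the members' pattern. E-box 1 is CAGCTG and E-box 2 is CAGATG. E-box 1 was found at 34.7% of members and 16.6% of all promoter sites, and the SP and KLF motif at 27.9% and 42.5%.

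The motif shares were also read within the H3K4me3 classes, which among members differ in CpG content. Within promoter sites with no H3K4me3 region, AP-1 was found at 11.2% of members (8.06 to 15.1) against 5.00% of all such sites, and CAGCTG at 44.0% (38.6 to 49.4) against 23.8%. Within sites marked in both states, AP-1 was found at 3.67% of members (1.91 to 6.32) against 2.02%, a share that the interval holds, and CAGCTG at 24.2% (19.6 to 29.2) against 13.0%. The TEAD motif was at 13.6% (10.1 to 17.7) against 12.1% in unmarked and 8.26% (5.51 to 11.8) against 6.65% in marked sites, so that the members' intervals held the share of all such sites in both classes. SP and KLF was at 12.4% (9.08 to 16.4) against 14.1% in unmarked sites, where the interval held it too, and at 44.6% (39.2 to 50.2) against 56.7% in marked sites. For the CCAAT box, ETS, CRE and YY1 the unmarked members were at 20.4%, 0.295%, 0.590% and 0.885% against 21.2%, 0.447%, 0.459% and 0.918%, with intervals that held those shares. Marked members were at 17.4%, 1.22%, 0% (0 of 327, upper bound 1.12%) and 0.612% against 28.1%, 5.14%, 2.45% and 2.77%, with intervals below them. The NFI core at unmarked members was at 20.6% (16.5 to 25.4) against 18.1%, which the interval holds, and at marked members at 12.5% (9.15 to 16.6) against 7.22%.

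The members were assigned to 674 genes, of which 26 had 2 or more member sites. Of the protein-coding genes with any promoter site, 529 of 14543 (3.64%) had a member in the window of any of their starts, and the gene lists below are read against this share. The lists and their members were chosen with earlier results of these data known, so the counts are descriptions.

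Cell cycle genes held 1 member, a share too close to the background to be read as a result about the list. Of 57 genes of the cell cycle and DNA replication, 55 had a constitutively open promoter and only E2f2, an activating E2F factor, had a member (1.75%). At E2f2 (chr4:136172074-136172367, summit 139 bp upstream of the TSS) the fold enrichments were 3.85 and 4.39 in activated and 5.07 and 5.50 in reactivated cells, with H3K4me3 at 44.9 in quiescent and 41.8 in activated cells. Of 79 genes of ribosomal proteins and translation factors, 77 had a constitutively open promoter, and only Rps10 had a member (1.27%).

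Genes of the BMP pathway and quiescence had members at 3 of 40 (7.50%), which were Smad5, Smad1 and Id4, and each of these lay beside a constitutively open site at the same TSS. SMAD1 and SMAD5 carry the BMP signal to the nucleus. At Smad5 (chr13:56704041-56704359) the fold enrichments were 3.48 and 4.56 in activated and 4.83 and 4.00 in reactivated cells, and at Smad1 (chr8:79398305-79398906) 2.63 and 3.36 against 4.79 and 3.83. At Id4 (chr13:48261367-48261965) they were 3.28 and 3.43 against 3.83 and 5.65. Reactivated values were all above activated ones at Smad1 and Id4 and overlapped them at Smad5. The order seen at Smad1 and Id4 is that of 76.4% of promoter sites in general.

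Growth factor signalling had members at 2 of 49 genes (4.08%), the ligands Fgf18 and Nrg1, a share close to the background. Fgf18 had 4.12 and 3.49 in activated and 4.25 and 4.65 in reactivated cells, and Nrg1 had 2.65 and 2.71 against 6.69 and 6.96 at its first start (chr8:32883832-32884382). Both were marked by H3K4me3 in both states. Notch, Wnt and hedgehog signalling had members at 3 of 65 (4.62%). Dll3, a divergent Notch ligand, had 5.66 and 5.34 against 8.58 and 8.81 (chr7:28301990-28302514). Its reactivated values were the higher, as at 76.4% of promoter sites in general. Ptch1, the hedgehog receptor, had 5.76 and 4.48 against 4.85 and 4.91 at an alternative TSS, and Lrp5, a Wnt co-receptor, had 3.58 and 3.28 against 7.02 and 5.60.

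Neurogenic and lineage transcription factors had members at 9 of 60 genes (15%). They were Sox6, Cux1, Neurog2, Nkx6-1, Myt1, Neurod1, Emx1, Sp8 and Tcf4. Sox6, a SoxD factor of glial and neuronal lineages, had a member at an alternative TSS (chr7:115825319-115825771) with 7.29 and 5.70 in activated and 9.18 and 8.38 in reactivated cells, and a weaker one at another start with 2.69 and 3.22 against 2.72 and 2.99. Cux1, a homeobox factor of upper cortical layers, had 5.44 and 4.56 against 6.996 and 8.38. Neurog2, the proneural factor of cortical glutamatergic neurons, had 5.85 and 5.26 against 5.64 and 6.68 at a site 394 bp upstream of its TSS (chr3:127632594-127632903), with the states overlapping. Nkx6-1, a ventral patterning factor, had 4.24 and 3.57 against 4.74 and 4.69. Its reactivated values lay above the activated ones, as at 76.4% of promoter sites in general. Of the 60 genes, 39 had a constitutively open promoter.

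Genes of neuronal excitability and the synapse had members at 11 of 84 (13.1%). Rbfox1, a neuronal splicing regulator, was the strongest, with 5.16 and 5.28 in activated and 12.5 and 15.5 in reactivated cells at an alternative TSS (chr16:6348524-6349373). Syn2, a synaptic vesicle protein, had 5.44 and 3.57 against 10.5 and 8.79. Gad2, which makes GABA from glutamate, had 5.29 and 3.28 against 6.03 and 6.28, and was marked by H3K4me3 in quiescent cells only, at 4.57. Cacna1a, the pore subunit of P/Q-type calcium channels, had 4.68 and 3.61 against 6.81 and 5.17. In these 4, and in Kcna1, Kcnc1 and Grin2c, both reactivated values lay above both activated ones. Gad1, the other GABA-making enzyme, ran the opposite way, with 4.11 and 3.99 against 3.51 and 3.29, as did Cacna1c, an L-type calcium channel subunit, with 2.80 and 2.68 against 2.53 and 2.66. The states overlapped at Cacng4 and Cacna1b. The order with both reactivated values higher was thus found at 7 of 11 members, against 76.4% of promoter sites in general.

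Genes of the extracellular matrix and integrins had members at 9 of 68 (13.2%). Itga6, the laminin receptor subunit, had 4.11 and 3.85 in activated and 12.0 and 7.85 in reactivated cells (chr2:71744893-71745503). Sparc, a secreted collagen-binding protein, had 6.86 and 5.13 against 4.12 and 5.35, with the states overlapping. Col6a2, a chain of collagen VI, had 4.24 and 2.57 against 7.80 and 8.64, and Itgb3, the integrin beta 3 subunit, had 3.18 and 4.14 against 5.60 and 7.45. The remaining members were at Tnr, Lamb2, Col9a2, Col12a1 and Itga2b. Over the 9 members, both reactivated values lay above both activated ones at 7, and the states overlapped at 2. This order is that of 76.4% of promoter sites in general.

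Guidance and adhesion genes had members at 3 of 71 (4.23%). Cntn2, an axonal adhesion molecule, had 4.02 and 3.22 in activated and 6.90 and 9.30 in reactivated cells. Sema6a, a transmembrane semaphorin beside a constitutively open site, had 5.53 and 3.69 against 3.78 and 4.05, and Epha5, an ephrin receptor, had 2.17 and 2.65 against 2.38 and 2.74. The oligodendrocyte lineage had 1 member among 20 genes, at Cnp, a myelin enzyme, with 3.45 and 2.73 against 3.57 and 4.86. Astrocyte and radial glia genes had members at 0 of 30, of which 19 had a constitutively open promoter.

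Some genes had several members. Bcat1, the cytosolic branched-chain aminotransferase, had 3, at 3 of its starts (chr6:145040696-145041124, chr6:145047436-145047866 and chr6:145075331-145076199), with fold enrichments between 3.25 and 5.31 in activated and 5.34 and 9.96 in reactivated cells. At each of the Bcat1 sites the reactivated values lay above the activated ones, as at 76.4% of promoter sites in general. Only the site at the farthest upstream of these starts was marked by H3K4me3, at 33.7 in quiescent and 23.5 in activated cells. Rap1gap, a GTPase-activating protein for Rap1, and the long non-coding gene Gm15941 also had 3. Map2 and Map1b, both microtubule-associated proteins of neurons, had 2 each at different starts, and all 4 sites were marked by H3K4me3. Sites of Ddr1, a collagen-binding receptor kinase, Myo1c, Phldb1 and St6gal1 lay close together, so that they share a gene and are not separate cases. The near-identical genes Duxbl1, Duxbl2 and Duxbl3 had 1 member each, with activated values of 3.14 to 6.50 and reactivated values of 7.71 to 11.1, and reads could have been split or shared among these copies.

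The labelled cell type was checked against marker genes by promoter peaks. Of 10 markers of NSPCs, 9 had a promoter peak in each activated library and 10 in each of the others. Of 7 neuronal markers 3 to 5 had one, of 5 markers of mature oligodendrocytes 1 or 2, of 7 of microglia 1 or 2, of 7 of endothelial cells and pericytes 2 to 4, and of 6 of fibroblasts and meninges 1 to 3. Neuronal markers had peaks at 5 of 7 in both reactivated libraries against 3 or 4 in the others, and fibroblast and meningeal markers at 3 of 6 in both reactivated libraries against 1 in each of the others. Over all genes, 23250 and 23066 promoter sites had a peak in the reactivated libraries against 14819 to 16206 in the others. Stmn2, Slc32a1, Mog, Mag, Mobp, Aif1, Csf1r, Itgam, Ptprc, Cldn5, Cdh5, Tek, Col1a2, Col3a1 and Lum had none in any library. Of all these markers only Camk2a, a kinase of excitatory neurons, had a member. The part of other cell types in the members was not tested.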

How the data were processed

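ATAC-seq of quiescent, activated and reactivated NSPCs (2 libraries per state) and H3K4me3 ChIP-seq of quiescent and activated NSPCs (1 library and 1 input per state) were analysed as peak lists, 1 per library. For ATAC-seq the authors mapped trimmed reads to mm10, discarded duplicates, downsampled the reactivated libraries and ran MACS with an FDR threshold set to 0.05. Their processing notes name Trim Galore 0.4.0, Bowtie2 2.2.5, Picard 1.88, SAMtools 1.3.1 and HOMER. H3K4me3 regions are broad MACS calls over the input library (q threshold 0.05, threshold for broad regions 0.01, extension 150 bp). The deposited fold enrichment is the ratio of pileup to local background within a library, and the authors did not scale it between libraries. Deposited −log10 p and −log10 q values come from the authors' MACS runs, 1 library at a time, and rise with sequencing depth. A score column, deposited as a whole-number form of −log10 q, went unused. Summits are deposited as bases from the start of a peak.

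The members and the gene lists were chosen with earlier results of these data known. Sites were made as described at the start, with an overlap of 1 bp and TSSs of all transcripts in GENCODE M21. The gene of a site was that of the TSS nearest to its middle, protein-coding genes first. Percentiles are ranks of fold enrichment within a list. For peaks with −log10 p of at most 40, the MACS definitions of fold enrichment and p were solved for the pileup, and 99.98% to 99.99% of such peaks, by library, gave a whole number within a tolerance of 0.02%. Lists held 47323 to 107137 peaks, and the background pileup was 6.01 to 12.1 reads, which sets the precision. Shares carry exact (Clopper-Pearson) 95% intervals that cover counting error only. No test was run, because the peak calls chose the members and H3K4me3 has 1 library per state. Peak names of the files show different sequencing lanes for the quiescent and activated libraries. Lane and state cannot be told apart. The inputs were not used here on their own.

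Genes named are the 10 strongest members by mean percentile over the activated and reactivated libraries, up to 4 of the strongest per gene list, the 5 highest and 5 lowest H3K4me3 ratios, up to 5 of the strongest members marked in 1 state only, the 3 extremes of the percentile difference on either side, the 3 sites nearest to each threshold on either side, and genes with 2 or more members. Duxbl1 to Duxbl3 are among further genes named after their values were seen, as are all members of the gene lists beyond 4. Sequence was read from GRCm38.p6 (RefSeq). Summits were those of the strongest activated peak for members and of the strongest peak of any library for other classes. Alternatives were a −log10 q of at least 10, lists of equal length, merging of only shared bases, promoter windows of 2 kb and 500 bp, protein-coding TSSs, chromosomes X and Y, each library left out, 50% of a member covered by H3K4me3, and motifs over whole sites. The scripts were tested on simulated data and used Python 3.11.15, pandas 2.3.3, numpy 2.4.6, scipy 1.17.1 and pysam 0.24.0.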

Additional observations from a re-analysis of the deposited data

How the results depend on the processing

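The count of 703 members, the share of activation promoters open again (93.2%), the share marked by H3K4me3 in both states (46.5%), the share beside a constitutively open site (17.6%), the share at an alternative TSS (34.7%), the median CpG ratio (0.42) and the median of the members' mean fold enrichment (4.86) were recomputed. The fold enrichment alternatives were chosen after seeing the data. Beyond the libraries left out, the count stayed within 1.5 times under every setting run. With peaks of a −log10 q of at least 10 only, the share open again was 97.6%, that marked 62.7%, that beside an open site 8.37%, the CpG ratio 0.51 and the fold enrichment 7.03. With lists of equal length these were 57.5%, 54.8%, 12.1%, 0.46 and 6.04. The 2 kb window gave 39.8% marked, 23.6% beside an open site, 30.4% at an alternative TSS and a CpG ratio of 0.35, and the 500 bp window gave 10.1% beside an open site and a CpG ratio of 0.47. Protein-coding TSSs gave 54.3% marked, 20.9% beside an open site, 47.4% at an alternative TSS and a CpG ratio of 0.48. Requiring 50% of the member to be covered left 41.8% marked. With each library left out in turn, the count ran from 734 (without reactivated replicate 1) to 1447 (without activated replicate 2, and 1290 without quiescent replicate 2), since fewer lists had to meet the rule. The share open again then ran from 78.9% to 96.4%, that marked from 46.6% to 56.4%, that beside an open site from 17.7% to 23.1%, that at an alternative TSS from 31.2% to 34.8%, the CpG ratio from 0.41 to 0.52 and the fold enrichment from 4.39 to 5.16. Over whole sites, which are longer than 200 bp in nearly all cases, motif shares were 10.95% (AP-1), 28.6% (NFI core), 49.1% and 33.0% (E-boxes CAGCTG and CAGATG), 22.2% (SOX), 4.55% (homeobox), 21.9% (TEAD), 37.1% (CCAAT), 40.1% (SP and KLF), 3.13% (E2F) and 2.13% (YY1). Except where a change of construction is named, the cause was not tested. No paired analysis was possible because the results come from peak calls and shares of sites, not from a test between groups.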

Other observations

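A small set of activation promoters had no peak after reactivation. The 12 sites with a peak in both activated libraries and in no quiescent or reactivated library were at P3h2, Mvd, Pou2f3, Kbtbd11, Grk5, Cfap45, Pcsk2, n-R5s108, Shroom3, Cnot6l, n-R5s118 and 6820431F20Rik. The median of their mean activated fold enrichment was 3.10, with a range of 2.19 to 3.59, against 3.86 and 2.15 to 10.4 for the 703 members. H3K4me3 marked 7 of the 12 in both states. The strongest, at P3h2, a collagen prolyl hydroxylase, had 3.26 and 3.91 in the activated libraries, and Mvd, an enzyme of cholesterol synthesis, had 4.01 and 3.01. The 39 sites with a peak in 1 reactivated library had a median of 3.15 and included sites at Adm, which encodes the peptide adrenomedullin, with 5.16 and 3.17 in activated cells and 2.55 in reactivated replicate 1, and at Rgs16, a regulator of G protein signalling, with 4.60 and 3.57 in activated cells and 4.08 in reactivated replicate 2. Sox6, which has 2 members, and Nkx6-1, which has 1, also had a site of this kind. H3K4me3 marked 8 of these 39 sites in both states, against 327 of the 703 members and 65.7% of all promoter sites. The genes of this paragraph were named after their values were seen.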
